A study of Rattus norvegicus with 18 samples.

Results

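Cultures of bone marrow stroma can differ in the macrophage RNA they hold, and the arrays described here were chosen by the level of a macrophage transcript. The measured value used was that of Cd68, a lysosomal glycoprotein of macrophages. Levels are log2 of the deposited intensity of the probe set that stands for the gene (1375010_at for Cd68). Arrays with Cd68 above 9.5 were called macrophage-rich and arrays below 8.5 were called macrophage-poor, whatever the diet and feeding time. The rule placed 16 of the 18 arrays, 9 in the rich and 7 in the poor set, and left out the other two. Because a measured value chose the sets, the comparison describes which transcripts moved together with Cd68 between cultures, and it is not a test of a treatment. For that reason Cd68 and the other macrophage genes are given by their values and counts, with no p-value. For other genes a difference, rich minus poor, is given with its standard error (SE), and a gene passed where limma gave it an adjusted p (Benjamini-Hochberg) under 0.05. Tested genes had a mean over all arrays above a filter limit of 3.22. Where the median of the lower set lay below that limit, the gene entered the test through the higher set, so the size of its difference is not exact, and no p-value is given for it.

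Macrophages descend from haematopoietic cells, whereas the fibroblast-like stromal cells are mesenchymal and carry no Ptprc (CD45). When whole marrow is plated, both kinds of cell adhere to plastic. Macrophages depend on colony-stimulating factor 1, which stromal cells supply, and signal through the adaptor Tyrobp, which couples activating receptors to the kinase Syk. They can persist among stromal cells for several passages, so an RNA sample of such a culture can hold transcripts of both.

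The cells were labelled as mesenchymal stem cells of Sprague-Dawley rats that were 6 weeks old when feeding began. No genetic change was named, and the series text states that surface markers were checked before RNA extraction. Normal diet (ND) was wholly basal diet, and high-fat diet (HFD) held 60% basal diet, 20% lard, 10% sucrose and 10% egg yolk powder. Feeding lasted 1, 2 or 4 months, with 3 arrays for each diet and time. Whole marrow was plated without a named step to deplete blood cells. The passage was 3 in the sample labels and 1 in the series text. The labels do not say which animal each array came from, so the p-values below measure the spread between these arrays, which may be technical.

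The rich set held 1 array of ND 1-month, 1 of HFD 1-month, 2 of ND 2-month, 2 of ND 4-month and 3 of HFD 4-month. In the poor set were 2 arrays of ND 1-month, 2 of HFD 1-month, 1 of ND 2-month and 2 of HFD 2-month. Rich and poor cultures therefore occurred side by side in 3 groups, ND 1-month, HFD 1-month and ND 2-month. All 4-month arrays in the comparison were rich and both HFD 2-month arrays were poor, so for these arrays the kind of culture and the group cannot be told apart. A fit with diet and time groups as a block takes its differences from the 9 arrays of the 3 mixed groups alone. The beta-actin 3' minus 5' difference, which grows with RNA degradation, was 0.50 to 0.70 log2 units on rich and 0.48 to 0.66 on poor arrays. Median intensities were 25.4 to 27.1 and 26.1 to 26.8.

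Cd68 chose the arrays, so only Tyrobp, the leukocyte lysosomal protein Laptm5 and the leukocyte phosphatase Ptprc could be set against the label. Together with Cd68 they make up the 4 markers. Their genes lie on chromosomes 10 (Cd68, 54880562 to 54882441), 1 (Tyrobp, 94800372 to 94804307), 5 (Laptm5, 148371880 to 148393927) and 13 (Ptprc, 52147717 to 52259810) of the GRCr8 build. Just inside the thresholds lay ND 4-month replicate 1, with Cd68 at 9.74, and HFD 1-month replicate 1, at 8.30. Just outside lay HFD 2-month replicate 3 at 8.998 and ND 4-month replicate 3 at 9.08. Tyrobp ranged from 9.62 to 10.70 log2 units with a median of 10.44 on rich arrays, and from 4.71 to 8.63 with a median of 7.50 on poor arrays. Laptm5 ranged from 9.17 to 10.24 on rich arrays (median 9.88) and from 6.54 to 8.10 on poor arrays (median 6.99). Rich and poor arrays did not overlap in Cd68, which chose them, or in any of the other 3 markers.

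Ptprc was at 6.78 to 7.96 on rich arrays (median 7.27) and at 2.18 to 6.08 on poor arrays (median 4.60). The poor arrays were graded rather than free of macrophage RNA. ND 1-month replicate 3 was lowest in Cd68 (4.53), Tyrobp (4.71) and Ptprc (2.18), while both poor HFD 1-month arrays kept Ptprc at 5.99 and 6.08. In bulk RNA, fewer macrophages and less macrophage RNA per cell cannot be told apart.

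**Figure D1:**
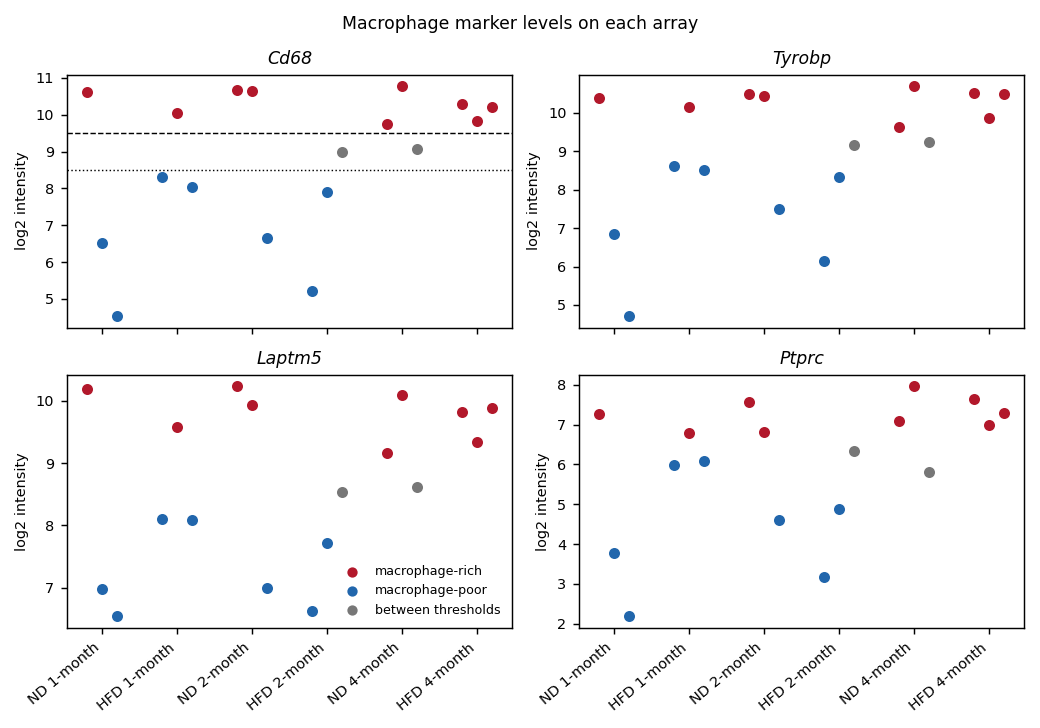
Log2 intensity of Cd68, Tyrobp, Laptm5 and Ptprc (vertical axes) on each of the 18 arrays, by diet and feeding time (horizontal axis). Red points are macrophage-rich, blue points macrophage-poor and grey points between the thresholds, drawn as a dashed line at 9.5 and a dotted line at 8.5 in the Cd68 panel. Both left-out arrays lie between the sets in Cd68, Tyrobp and Laptm5.

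Many macrophage genes share a promoter motif bound by ETS-family factors such as PU.1, the master regulator of myeloid cells, and the promoters of genes that moved with Cd68 are shown for that reason. The motif searched was GAGGAAG on both strands, in the 250 bases before the gene start in the RefSeq promoter table of the GRCr8 build. Capitals mark its matches, which read CTTCCTC where the match lies on the other strand. Laptm5 is one of the 4 markers. Cd53 is a leukocyte tetraspanin, Itgam the alpha chain of the integrin CD11b, Mrc1 the mannose receptor and Trem2 a lipid receptor that signals through Tyrobp.
Laptm5, chr5:148371630-148371879, plus strand: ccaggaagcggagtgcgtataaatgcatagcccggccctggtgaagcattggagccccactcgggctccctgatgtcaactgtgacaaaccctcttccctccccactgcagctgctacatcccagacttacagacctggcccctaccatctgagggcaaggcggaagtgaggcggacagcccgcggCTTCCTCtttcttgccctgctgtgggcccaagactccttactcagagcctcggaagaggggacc
Cd53, chr2:197087897-197088146, minus strand: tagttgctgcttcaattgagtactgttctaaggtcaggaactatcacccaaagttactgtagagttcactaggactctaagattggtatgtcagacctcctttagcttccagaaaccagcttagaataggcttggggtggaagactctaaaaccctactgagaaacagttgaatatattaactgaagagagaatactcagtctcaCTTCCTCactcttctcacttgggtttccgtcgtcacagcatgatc
Itgam, chr1:192089342-192089591, plus strand: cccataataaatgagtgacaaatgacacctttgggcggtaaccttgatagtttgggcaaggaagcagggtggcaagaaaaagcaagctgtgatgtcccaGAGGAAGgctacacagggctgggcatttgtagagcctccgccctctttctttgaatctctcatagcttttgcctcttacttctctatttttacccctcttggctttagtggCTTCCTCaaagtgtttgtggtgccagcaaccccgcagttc
Mrc1, chr17:82157475-82157724, plus strand: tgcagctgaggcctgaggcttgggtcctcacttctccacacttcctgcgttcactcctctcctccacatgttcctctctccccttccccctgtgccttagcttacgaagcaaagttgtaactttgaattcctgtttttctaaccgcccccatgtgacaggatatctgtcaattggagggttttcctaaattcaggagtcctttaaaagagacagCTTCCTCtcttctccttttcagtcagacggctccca
Trem2, chr9:20151780-20152029, minus strand: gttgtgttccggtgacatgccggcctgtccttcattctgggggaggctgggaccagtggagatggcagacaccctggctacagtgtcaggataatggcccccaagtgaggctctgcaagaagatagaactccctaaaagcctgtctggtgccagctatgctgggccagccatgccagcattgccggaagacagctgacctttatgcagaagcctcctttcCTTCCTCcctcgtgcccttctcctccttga

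The match began 64 bases before the start of Laptm5, 45 before that of Cd53, 36 before that of Mrc1 and 30 before that of Trem2. Itgam held matches at 151 and 40 bases before its start. Starts are those of the promoter table, and for Itgam, Cd53 and Trem2 they lie inside the gene's span in the RefSeq gene table, so the end of each of these 3 windows is within the gene. Of the 128 tested genes in the macrophage lists, 97 had a promoter in the table and 29 of these (29.9%) held the motif, beside 10.1% of all 27457 promoters of the same length. The promoters of Cd68 and Ptprc held no match in this window. Among the 15 leukocyte signalling genes with a promoter 6 held it, and among 131 genes at least 4-fold higher in rich cultures 31 did (23.7%). The share was 14.6% among all genes called higher, 9.96% among genes that fell and 10.9% among all named genes tested. These are matches of letters and no measure of binding.

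The macrophage lists held 128 tested genes, in 12 lists by role, of which 105, Cd68 among them, were called higher and 0 lower in rich cultures, beside 13.8% and 10.3% of all named genes tested. The median difference, rich minus poor, was 1.94 log2 units, beside -0.00077 over all 11446 named genes tested. Rich and poor arrays did not overlap, with rich higher, for 79 of the 128. Over all named genes the share that did so was 5.36%. Since Cd68 chose the arrays, nothing is read from these counts or from those of the single macrophage lists below. In the 3 groups that held both kinds of culture 104 of these genes had complete values, and 88 were higher in the rich arrays in all 3. With the 6 diet and time groups as a block, 2 genes of these lists were called lower, the complement regulator Cfp at -0.42 and RT1-Ba at -0.26. The block also left 4 of 7 complement genes called higher in place of 6, 14 of 18 Fc, scavenger and lectin receptors in place of 16, and 12 of 17 chemokines and cytokines in place of 14.

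Signalling genes of leukocytes were higher together in rich cultures. All 23 tested adaptors, kinases and cytoskeletal regulators of leukocytes were called higher, beside 13.8% of all named genes. Of them 22 did not overlap, beside 5.36% of all named genes, and the median difference was 2.56. The markers Tyrobp, Laptm5 and Ptprc were among the 23. Fcer1g, the Fc receptor gamma chain that works like Tyrobp, ranged from 10.61 to 11.90 on rich arrays (median 11.50) and from 5.28 to 9.69 on poor arrays (median 8.18). Syk was 3.33-fold higher, the Src-family kinases Lyn and Fgr 3.37-fold and 5.59-fold, and the phosphatase Ptpn6, which dampens these signals, 5.90-fold. Plastin Lcp1, which bundles actin in leukocytes, was 8.57-fold higher. The tyrosine kinase Btk was the exception to the separation, with a lowest rich value of 4.61 and a highest poor value of 4.78.

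Surface receptors of macrophages were far apart in the same way. Fcgr2b, the inhibitory Fc receptor, was between 7.49 and 9.33 on rich arrays (median 8.55) and between 1.89 and 6.51 on poor arrays (median 3.05). Mrc1 was within a narrow band on rich arrays, 10.67 to 11.34, and spread from 4.21 to 8.91 on poor arrays. The gap between the sets in Mrc1 was larger than the whole spread of the rich arrays. Csf1r, the receptor of colony-stimulating factor 1, was 7.78-fold higher, and Adgre1, an adhesion receptor used as a macrophage marker, 8.08-fold. Of 18 Fc, scavenger and lectin receptors 16 were called higher (median 2.66) and 13 did not overlap. Over all named genes 13.8% were called higher and 5.36% did not overlap in that direction. Cd36, a fatty acid scavenger receptor also made by adipocytes, and Axl, a receptor for dying cells also made by stroma, did not pass, at 1.57 and 0.11.

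Effector genes followed the receptors. All 5 tested genes of the phagocyte NADPH oxidase were called higher (median 2.71), with Cybb, its catalytic subunit, 11.6-fold higher. Of the 15 lysosomal genes other than Cd68, 12 were called higher. The share called higher among all named genes was 13.8%. Ctss, a cathepsin of antigen-presenting cells, was 8.15-fold higher, while Ctsb and Ctsd, which fibroblasts also make, were 1.85-fold and 2.70-fold higher. Lamp1, a membrane protein of all lysosomes, stood at 0.11.

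Secreted products were among the furthest apart of all genes. Ccl6, a myeloid chemokine, was between 8.13 and 10.36 on rich arrays (median 9.15) and between 2.86 and 7.51 on poor arrays (median 3.31), which was 40.6-fold. Apart from HFD 2-month replicate 2, at 7.51, every poor array read 3.92 or lower for Ccl6. C3, the central complement protein, was at 8.36 to 10.17 on the 8 rich arrays with a value (median 9.82) and at 2.88 to 5.92 on poor arrays (median 4.73), or 27.9-fold. Apoe, the lipid carrier, was 12.8-fold higher and Il18, an inflammasome cytokine, 12.3-fold. Ccl3 and Ccl4 were 8.62-fold and 8.35-fold higher. Tnf stayed between 3.79 and 4.54 on all arrays of both sets.

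The transcription factors of myeloid cells had a smaller median difference, 0.85, than the receptors. Of 12 tested 9 were called higher, beside 13.8% of all named genes. Hhex was at 4.02 to 6.06 on rich and at 2.31 to 3.72 on poor arrays. Tfec, a relative of Mitf in macrophages, was 4.31-fold higher, Irf8, which specifies monocytes, 3.30-fold, and Cebpb 2.33-fold. Runx1, which acts in all blood lineages, stood at -0.05 and did not pass. Among growth factor and cytokine receptors 9 of 11 were called higher, with the GM-CSF receptor chain Csf2ra 4.10-fold and Il6r 3.93-fold higher, but Flt3, a receptor of early progenitors and dendritic cells, at 0.01.

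Of 9 tested genes of MHC class II antigen presentation 6 were called higher, 5 with no overlap, with a median of 0.85. Over all named genes the shares were 13.8% and 5.36%. The class II genes RT1-Da, RT1-Db1 and RT1-Ba, and their transactivator Ciita, differed by 0.85, 0.08, -0.18 and -0.0038. RT1-Da was higher on rich arrays but low on all of them, between 3.14 and 4.06, and Cd74, the invariant chain, was between 3.51 and 5.34. RT1-DMb and RT1-DMa, which load peptides on class II molecules, were 4.85-fold and 2.41-fold higher. Of 5 tested chemokine receptors of myeloid cells 3 were called higher, and Cx3cr1 stood at -0.12.

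Rich cultures were not alike in their macrophage genes. C1qb, a subunit of complement C1q, and Cd163, a scavenger receptor, both marks of tissue-resident macrophages, varied far more among rich arrays than the 4 markers did. C1qb was 9.05 on ND 4-month replicate 2, 7.99, 7.32 and 6.40 on HFD 4-month replicates 1, 2 and 3, and 6.57, 6.50 and 6.18 on ND 2-month replicates 1 and 2 and ND 1-month replicate 1. It was 4.40 on HFD 1-month replicate 2 and 3.37 on ND 4-month replicate 1, the latter within the poor range of 3.05 to 4.07. Cd163 followed the same order at its extremes, with 10.30 on ND 4-month replicate 2 and 5.90 on ND 4-month replicate 1, beside a highest poor value of 6.04. The lectin Clec10a and the scavenger receptor Stab1 were also lowest on ND 4-month replicate 1 among the rich arrays with a value, at 3.56 and 4.86. Thus ND 4-month replicate 1, whose Cd68 was the lowest of the rich set, had Ptprc within the rich range at 7.08 and C1qb at the level of poor cultures.

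**Figure D2:**
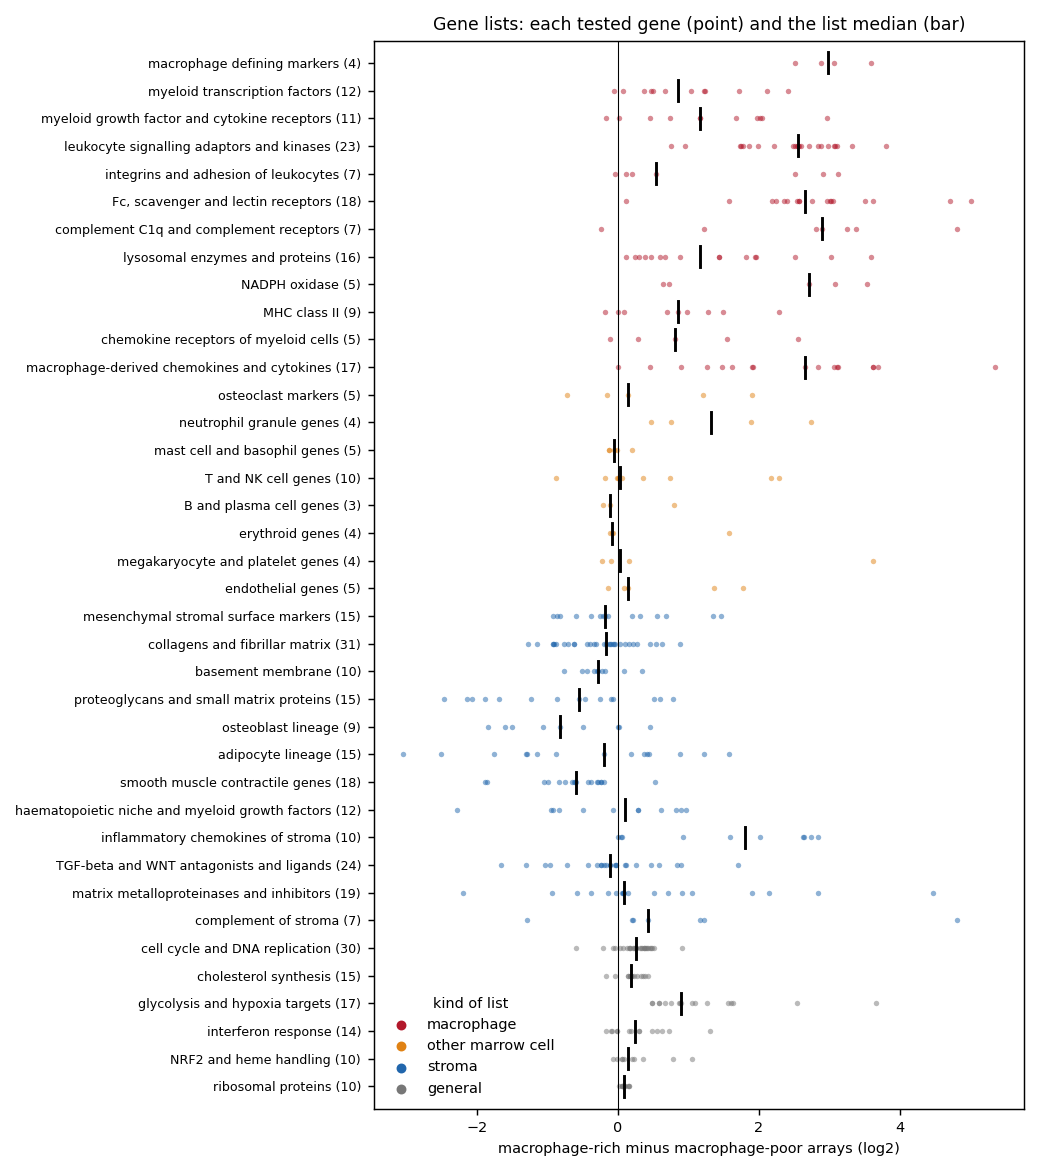
Rich minus poor difference in log2 units (horizontal axis) of every tested gene, as points, and the median of its list, as a black bar, for the 38 gene lists (vertical axis, tested genes in brackets). Macrophage lists lie to the right of 0, with medians up to 2.97, smooth muscle and osteoblast lists lie to the left at -0.60 and -0.83, and glycolysis and hypoxia targets lie to the right at 0.89.

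Other blood cells that plated marrow could hold were checked with their own lists. Among T cell receptor genes, Cd3e was at 2.88 to 3.58 on rich and 2.79 to 3.49 on poor arrays, and Cd3d and Cd3g were below the intensity filter. The CD8 coreceptor chains Cd8a and Cd8b were called higher, against poor arrays near or below the filter limit. Cd8a was at 3.14 to 6.07 on rich arrays (median 4.80) and at 2.21 to 3.17 on poor arrays (median 2.69), and Cd8b at 3.26 to 6.43 and at 2.81 to 3.30. The kinase Lck rose by 0.74 ± 0.11 (SE, n = 9 and 7), and the other 7 of 10 tested T and NK cell genes did not pass. Of all named genes 24.1% passed. The summed intensity of that list was 184 to 348 on rich and 178 to 241 on poor arrays.

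Of the remaining blood lineages, 0 of 5 tested mast cell genes and 0 of 3 tested B cell genes passed, beside 24.1% of all named genes. Lists this small cannot tell whether such cells were absent. The B cell factor Ebf1, also made by stroma, fell by 0.59 with diet and time groups as a block. The neutrophil granule genes Lcn2 (2.74 ± 0.74, adjusted p = 0.0132 in limma) and Mmp8 (medians of 5.19 on rich and 3.11 on poor arrays) were called higher, and Camp, which passed with diet and time groups as a block, and S100a8 stood at 0.47 and 0.75. In the erythroid list the transferrin receptor Tfrc rose by 1.57 ± 0.23 and haemoglobin Hbb stood at -0.09. Platelet factor Pf4, also a macrophage product, was 12.2-fold higher, and Itga2b and Gp9, which mark megakaryocytes, stood at 0.15 and -0.23. In the endothelial list Esam rose by 1.36 ± 0.17 and Tie1 was called higher, at 3.81 to 4.91 on rich and 2.56 to 3.33 on poor arrays, both with no overlap, while Kdr and Emcn were below the filter. For osteoclasts, 2 of 5 tested genes were called higher and 1 lower, beside 13.8% and 10.3% of all named genes. The largest difference in that list was 1.90. The phosphatase Acp5 rose by 1.21 ± 0.15 and cathepsin K, Ctsk, fell by 0.72 ± 0.15. With diet and time groups as a block 1 of the 5 was called higher and 1 lower (14.1% and 8.88% of all named genes were).

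Across the whole array, 2762 of the 11446 named genes passed at an adjusted p under 0.05 in limma, which was 24.1%. There were 1581 higher in rich cultures (13.8%) and 1181 lower (10.3%). The rises were the larger changes. At least 4-fold differences numbered 181 upward and 29 downward, and at least 8-fold differences 52 and 6. At the level of probe sets 4641 of 21729 passed (21.4%), 2402 higher and 2239 lower.

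The 15 largest rises with no overlap were Ccl6, C3, Fcgr2b, Mmp3, Siglec5, Clec4a, Igsf6, Adam8, Cd53, Slc28a2, Mpeg1, Apoe, Egln3, Mrc1 and Il18. Their differences ran from 5.34 down to 3.62 log2 units. Most are known leukocyte products, such as the pore-forming Mpeg1 and the lectin Clec4a. Mmp3 and Egln3 are also made by fibroblasts, and C3 was listed with both the macrophage and the stromal complement genes. Mmp3, or stromelysin, which cleaves matrix proteins, was at 6.24 to 8.92 on rich arrays (median 8.11) and at 2.55 to 6.10 on poor arrays (median 3.11). The sets came closest between ND 4-month replicate 1 at 6.24 and HFD 2-month replicate 2 at 6.10.

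Transcripts lower in macrophage-rich cultures included receptors and regulators of stromal and muscle-like cells. The largest fall was in Ptger3, a receptor of prostaglandin E2, which was at 3.30 to 4.07 on rich arrays (median 3.76) and at 5.81 to 9.21 on poor arrays (median 7.50). It fell by 3.91 ± 0.41 (adjusted p = 4.14e-06 in limma), and its other probe set fell by 1.55. Ecrg4, a secreted peptide precursor, ranged from 2.86 to 4.56 on rich arrays (median 3.28) and from 6.02 to 7.58 on poor arrays (median 6.70), and fell by 3.31 ± 0.24 (3.05e-07). Rich and poor arrays were separated by more than 1 log2 unit in both genes.

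Jag1, a ligand of Notch receptors, was at 6.19 to 6.92 on the 8 rich arrays with a value (median 6.60) and at 8.28 to 9.66 on poor arrays (median 8.90), and fell by 2.27 ± 0.20 (adjusted p = 1.48e-06 in limma). Hey2, a Notch target, was at 2.16 to 3.22 on rich arrays, near or below the filter limit, and at 4.48 to 6.70 on poor arrays. Other genes of that pathway were not listed together here. The other large falls were Mustn1, Crym, the protease Prss23, the metalloproteinase inhibitor Timp3, the matricellular Ccn5, the beta-3 adrenergic receptor Adrb3, Ephx1, Arsi, the Wnt receptor Fzd8, the growth factor Fgf1 and the RNA editing enzyme Adarb1. They fell by between 2.52 and 1.89 log2 units. The 4 probe sets of Timp3 disagreed in size, from -0.42 to -2.82, and Adrb3 did not pass with diet and time groups as a block (adjusted p = 0.055).

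**Figure D3:**
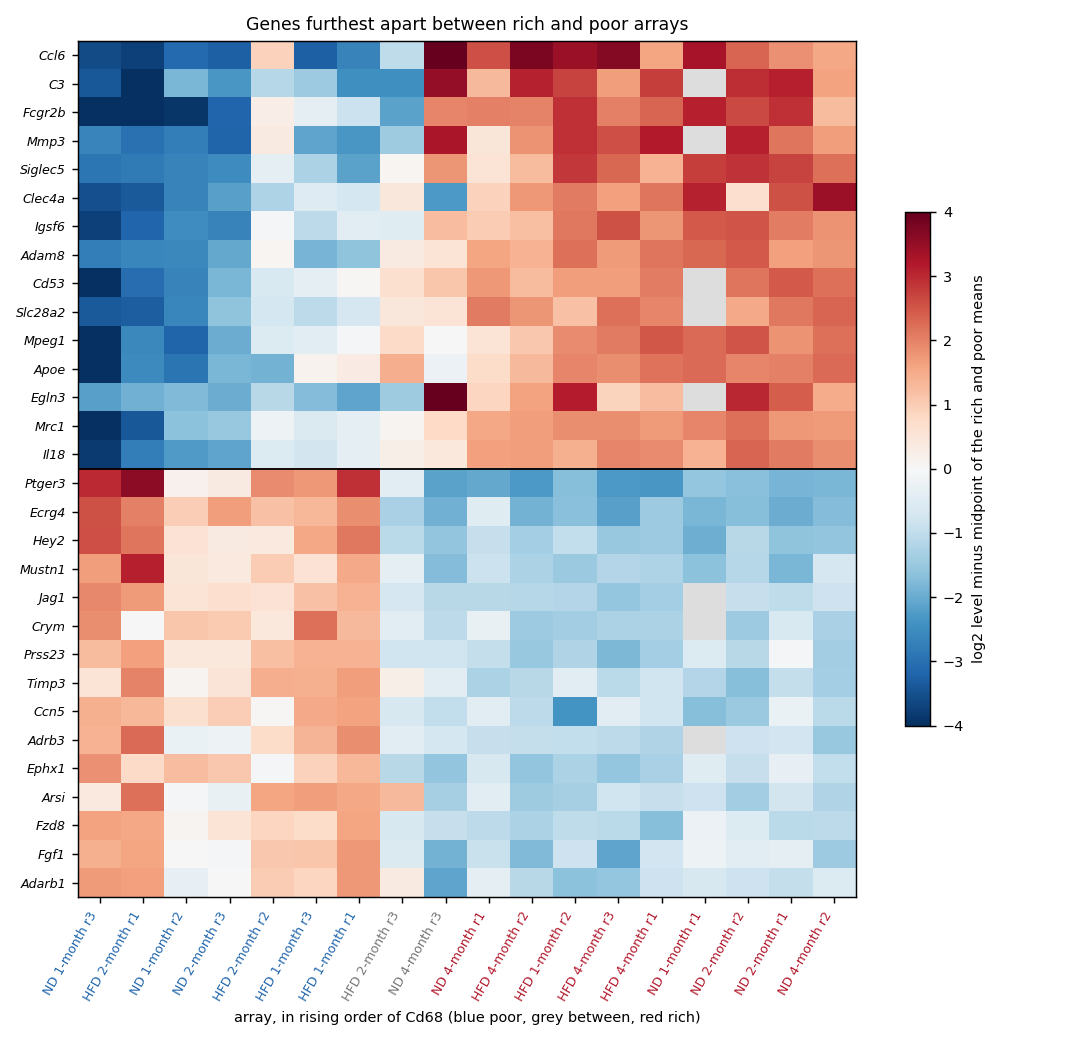
Log2 level of the 15 largest rises (above the line) and 15 largest falls (below it), relative to the midpoint of the rich and poor means (colour), on the 18 arrays in rising order of Cd68 (horizontal axis). Grey cells have no value. ND 4-month replicate 3, between the thresholds, is deep red for Ccl6, C3, Mmp3 and Egln3, and HFD 2-month replicate 3 is blue for C3, Mmp3 and Egln3.

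Among genes of the stromal cell itself, Thy1 and the main fibrillar collagens were at like levels in both kinds of culture, while other genes differed. Thy1 (CD90), a defining surface marker, was at 11.71 to 11.99 on rich and at 11.82 to 12.13 on poor arrays, a difference of -0.13 ± 0.07. The fibrillar collagens Col1a1 and Col1a2 stood at -0.11 ± 0.06 and -0.07 ± 0.05 and did not pass. Of 15 stromal surface markers 3 rose, 1 fell and 11 did not pass, with a median of -0.18, beside 13.8% of all named genes higher and 10.3% lower. The ectonucleotidase Nt5e (CD73) rose by 1.47 ± 0.19 with no overlap, Alcam by 0.69 ± 0.14 and Pdgfra by 0.56 ± 0.16, and the PDGF receptor of perivascular cells, Pdgfrb, fell by 0.87 ± 0.17. With diet and time groups as a block the median was 0.0076 and Alcam, Pdgfra and Pdgfrb no longer passed. Nt5e, endoglin (Eng) and Cd200 rose there, the last by 3.34, and Itgb1 and Cdh11 fell.

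Of 31 collagens and matrix genes 3 rose, 7 fell and 21 did not pass (median -0.17), beside 13.8% of all named genes higher and 10.3% lower. With diet and time groups as a block 12 of the 31 fell (8.88% of all named genes did). The crosslinking enzyme Loxl1 fell by 0.92 ± 0.12 and fibrillin, Fbn1, by 0.77 ± 0.13, both with no overlap, while the collagen prolyl hydroxylases P4ha1 and P4ha2 rose by 0.46 ± 0.08 and 0.62 ± 0.10. Of 15 proteoglycans and small matrix proteins 2 rose and 6 fell, with a median of -0.55, or -0.29 with diet and time groups as a block. Fbln5, an elastic fibre protein, was at 6.99 to 8.12 on rich arrays (median 7.46) and at 8.64 to 10.09 on poor arrays (median 9.34), with a fall of 1.89 ± 0.21 (adjusted p = 1.23e-05 in limma).

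Contractile genes fell together. Of 18 smooth muscle genes 12 fell, 0 rose and 6 did not pass, beside 10.3% lower and 13.8% higher of all named genes. Their median was -0.60 beside -0.00077 over all genes. Acta2, smooth muscle actin, was at 10.63 to 11.25 on rich arrays (median 11.10) and at 11.47 to 12.27 on poor arrays (median 11.79). The sets did not overlap, as in 5 of the 18 genes and 2.06% of all named genes, and Acta2 fell by 0.83 ± 0.13 (adjusted p = 0.000149 in limma). Myosin Myh11 fell by 1.86 ± 0.32, leiomodin Lmod1 by 1.04 ± 0.14 and phospholamban, Pln, by 1.89 ± 0.33. With diet and time groups as a block 8 of the 18 fell (8.88% of all named genes did). The CArG box, the motif of serum response factor, was found in 0 of the 12 promoters of this list that the table held and in 1.5% of all promoters.

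Some lineage genes of bone and fat were lower in rich cultures. Of 9 osteoblast genes Bmp2 fell (2.82-fold lower), the transcription factor Dlx5 by 1.06 ± 0.23 and bone sialoprotein, Ibsp, by 1.84 ± 0.58, and 6 did not pass, with a median of -0.83, or -0.24 with diet and time groups as a block. Ibsp no longer passed with the block, where it stood at -0.91, or when any of ND 1-month replicate 2, HFD 1-month replicate 2, ND 2-month replicate 1, HFD 2-month replicates 1 and 2 or ND 4-month replicate 2 was left out. Of 15 adipocyte genes 4 fell, 2 rose and 9 did not pass, with a median of -0.20, or -0.53 with that block. Of all named genes 10.3% fell and 13.8% rose, so the share of adipocyte genes that rose was near that of all genes. Plin1, the coat protein of fat droplets, was at 2.66 to 3.90 on rich arrays (median 2.88) and at 3.04 to 8.38 on poor arrays (median 7.06), and was called lower. The poor arrays split: 5 read between 5.15 and 8.38 and the HFD 2-month pair read 3.17 and 3.04, within the range of the rich arrays. Pparg, the adipogenic nuclear receptor, fell by 2.51 ± 0.45. The transcription factors that rose were Cebpb, which macrophages also use, and Cebpd (0.88 ± 0.15).

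Stromal cells also make the growth factors of blood cells. Csf1, the growth factor of macrophages, was at 8.19 to 9.54 on rich and at 8.12 to 9.03 on poor arrays, a difference of -0.07 ± 0.19. Of 12 niche and growth factor genes Jag1 fell, Il7 rose (0.82 ± 0.23) and 10 did not pass, Cxcl12 among them at 0.29 ± 0.58. Among all named genes 10.3% fell and 13.8% rose. With diet and time groups as a block 4 of the 12 rose (Il7, Il6, Csf2 and Csf3), Jag1 and Kitlg fell, and the median turned from 0.11 to -0.53. With that block 14.1% of all named genes rose and 8.88% fell. Of 10 inflammatory chemokines 6 rose, beside 13.8% of all named genes, with a median of 1.80, or 2.63 with the block. The neutrophil chemokine Cxcl1 was at 9.74 to 12.23 on rich arrays (median 11.57) and at 8.76 to 10.59 on poor arrays (median 9.19), and rose by 2.02 ± 0.33 (adjusted p = 0.000294 in limma). Ccl20 and Ccl7, chemoattractants of lymphocytes and monocytes, rose by 2.63 ± 0.52 and 1.59 ± 0.36. In each of these 3 chemokines the sets overlapped, and HFD 2-month replicate 2 was the highest poor array each time.

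In the TGF-beta and WNT list 2 of 24 rose and 4 fell, shares near those of all named genes (13.8% and 10.3%). Tgfb3 and Tgfb2 fell by 1.65 ± 0.22 and 0.97 ± 0.14, both with no overlap, whereas Tgfb1 stood at 0.26. The WNT ligand Wnt5a rose by 1.71 ± 0.29 (adjusted p = 0.000367 in limma), from 6.78 to 8.83 on poor arrays to 9.01 to 10.57 on rich arrays. Among 19 metalloproteinases and related genes 4 rose and 3 fell, also near the shares of all genes. Timp3 fell by 2.20 ± 0.25 and urokinase, Plau, rose by 2.14 ± 0.27, while the abundant Mmp2, Timp1 and Timp2 stood at 0.06, -0.03 and -0.14.

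Outside the macrophage lists, glycolysis and hypoxia targets had the largest share of genes called. Of 17 tested genes 15 rose, 0 fell and 2 did not pass, with a median of 0.89, and 12 of the 17 did not overlap. Over all named genes 13.8% rose and 5.36% did not overlap in that direction. Egln3, a prolyl hydroxylase that is itself induced in low oxygen, was at 5.49 to 7.79 on the 8 rich arrays with a value (median 6.18) and at 2.46 to 3.52 on poor arrays (median 2.73). All but 1 of the poor arrays were below the filter limit for Egln3. The lactate exporter Slc16a3 reached 8.49 at most on poor arrays, where its median was 7.39, and had a median of 9.97 on rich arrays. The sets did not overlap in either gene.

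The glucose transporter Slc2a1 was at 8.87 to 9.59 on rich arrays (median 9.27) and at 7.24 to 7.96 on poor arrays (median 7.65). It rose by 1.63 ± 0.11 (adjusted p = 2.05e-07 in limma), and Bnip3, a mitophagy protein, by 1.61 ± 0.14. Phosphoglycerate kinase Pgk1 and lactate dehydrogenase Ldha rose by 1.06 ± 0.12 and 0.76 ± 0.10, and Pdk1, which keeps pyruvate out of mitochondria, by 1.10 ± 0.11. Vegfa, the angiogenic factor, and carbonic anhydrase Car9 stood at 0.59 ± 0.28 and 0.48 ± 0.31 and did not pass. With diet and time groups as a block 15 of the 17 rose (14.1% of all named genes did), with a median of 0.99. The Ldha promoter is shown with ACGTG, the core of the hypoxia response element, in capitals on both strands. Overlapping matches make the palindrome CACGTG, also read as an E-box.
Ldha, chr1:106507842-106508091, plus strand: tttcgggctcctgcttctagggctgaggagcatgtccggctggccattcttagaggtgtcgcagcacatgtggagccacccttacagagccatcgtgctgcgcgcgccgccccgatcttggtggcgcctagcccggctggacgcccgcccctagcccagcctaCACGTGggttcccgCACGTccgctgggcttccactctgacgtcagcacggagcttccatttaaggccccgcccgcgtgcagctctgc

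Matches began 87, 86 and 73 bases before the start of Ldha. ACGTG was found in 3 of the 14 promoters of this list in the table (21.4%) and in 22.3% of the promoters of all named genes tested, so the share in the list was near that of all genes. Whether macrophages or stromal cells carried the rise was not tested.

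**Figure D4:**
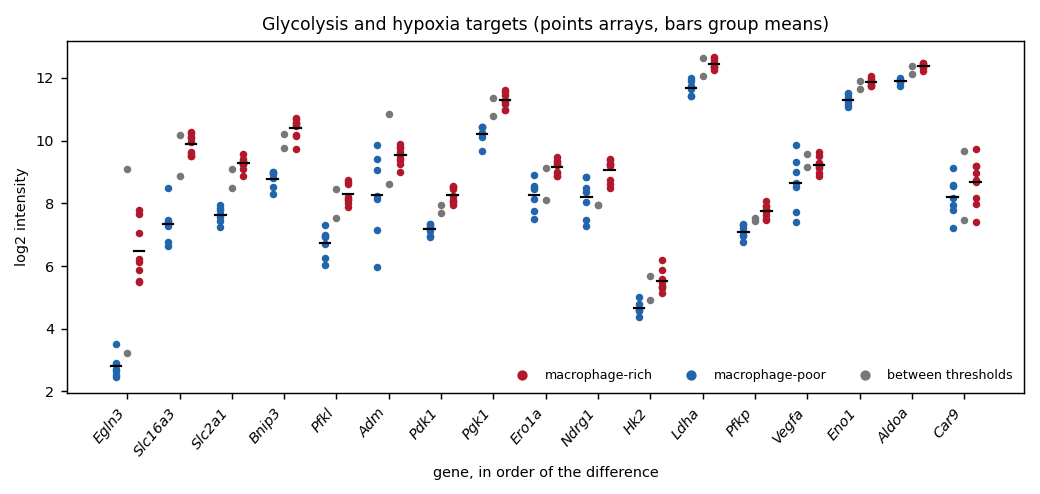
Log2 intensity (vertical axis) of the 17 tested glycolysis and hypoxia targets (horizontal axis, in order of the difference) on macrophage-poor (blue), between (grey) and macrophage-rich (red) arrays, with group means as bars. For Egln3 the rich arrays start at 5.49, the poor arrays end at 3.52, and 1 grey point lies at 9.11, above every other array.

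Lists of other general cell functions moved little, and their counts stand beside 13.8% of all named genes higher and 10.3% lower. Of 30 cell cycle genes Mki67 (0.91 ± 0.31) and E2f1 (0.45 ± 0.14) rose and 28 did not pass (median 0.26). With the block 0 of the 30 passed, where 14.1% of all named genes rose and 8.88% fell, and Mki67 stood at 0.35. Mki67 also did not pass in 11 of the fits that left out 1 array, that is all but those without ND 1-month replicate 2, HFD 1-month replicate 1, ND 2-month replicate 3, ND 4-month replicate 2 or HFD 4-month replicate 1, and it stood at 0.60 without HFD 2-month replicate 1. E2f1 did not pass without HFD 2-month replicate 1 or without HFD 2-month replicate 2. Of 15 cholesterol synthesis genes 1 rose, of 14 interferon genes 3 rose, and of 10 ribosomal protein genes 0 passed. Heme oxygenase, Hmox1, rose by 1.05 ± 0.15, 1 of 10 NRF2 and heme genes that passed, and with the block Gpx1 rose and Gclc fell as well.

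In the 3 groups that held both kinds of culture, differences were also taken within the group. These arrays were among those that gave the calls, so agreement in direction is largely built in. Of the genes that rose and had a value on all these arrays, 1350 of 1425 were higher in rich arrays in all 3 groups, and of those that fell, 961 of 1096 were lower in all 3. In Egln3 the difference was 5.07 in HFD 1-month and 4.69 in ND 2-month, of no exact size because the poor arrays there lay below the filter limit. In Ecrg4, with rich arrays near that limit, the likewise inexact difference was -3.61, -3.27 and -3.51 in ND 1-month, HFD 1-month and ND 2-month. For Tyrobp it was 4.61, 1.59 and 2.96, smallest in HFD 1-month, whose poor arrays had the highest Cd68. With the 6 diet and time groups as a block, which draws its differences from the same 3 groups alone, 5014 probe sets passed (23.1%). Of the named genes 1153 rose and 643 fell in both fits, and 2 risen and 4 fallen genes changed sign with the block.

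**Figure D5:**
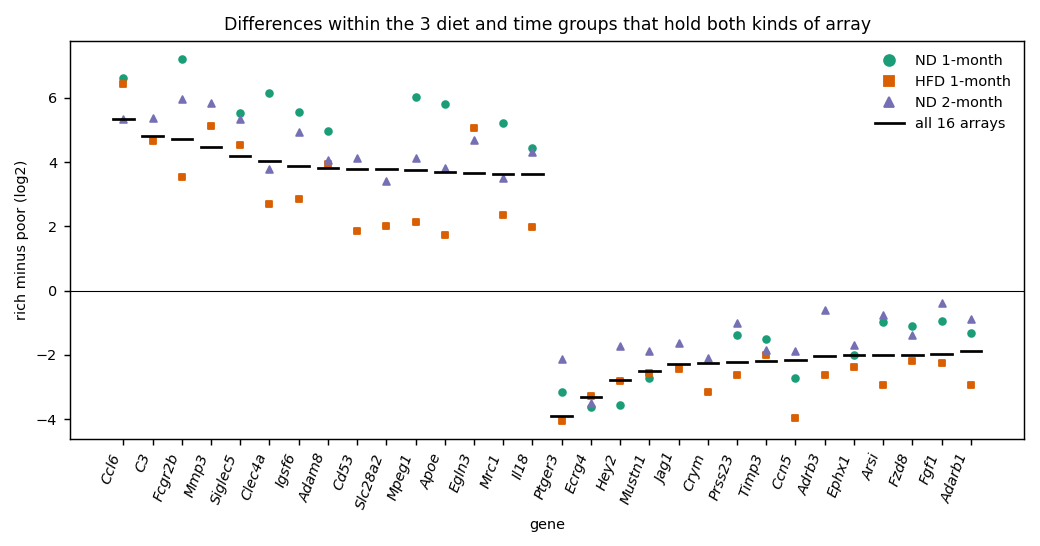
Rich minus poor difference in log2 units (vertical axis) for the 15 largest rises and 15 largest falls (horizontal axis), within ND 1-month (circles), HFD 1-month (squares) and ND 2-month (triangles), and over all 16 arrays (bars). These genes were chosen for not overlapping, which fixes the side of 0, so only the sizes can be read. Sizes are not exact where the lower set lay near or below the filter limit, as for Egln3 (5.07 and 4.69) and Ecrg4 (-3.61 to -3.27).

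The 2 arrays between the thresholds entered neither set. They were left out for their Cd68, so a middle position on genes that moved with Cd68 is not independent of the rule. On the 1581 genes that rose, HFD 2-month replicate 3 lay between the poor and rich means for 1197, with a median position of 43.8% of the way from poor to rich. ND 4-month replicate 3 lay between them for 901 and beyond the rich mean for 454, at a median of 60.8%. On the 1181 genes that fell their median positions were 57.9% and 102%. The fallen genes on ND 4-month replicate 3 were therefore at the level of rich cultures, while Cd68 was not.

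These arrays differed in secreted and hypoxia-related genes. Egln3 was 9.11 on ND 4-month replicate 3 and 3.22 on HFD 2-month replicate 3, Mmp3 was 9.01 and 4.33, and C3 was 10.58 and 4.63. On the former each exceeded all rich arrays, and on the latter each lay within the range of the poor arrays. Of the 8 tested interleukins and colony-stimulating factors in the lists, 6 were higher on the former than on every other array (Il1a, Il1b, Il6, Csf1, Csf2 and Csf3), and Il18 and Il7 were not. Among them were Il1a at 10.09 beside a highest rich value of 7.03, Il1b at 10.16 beside 9.21 and Csf3 at 8.13 beside 4.40. C1qb was 3.35 on the former and 5.92 on the latter, and Tyrobp was 9.25 and 9.18. Macrophage markers and these secreted genes thus took different places on arrays with like Cd68.

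Whether the difference between rich and poor cultures itself differed between diets was tested by an interaction term, over 5 rich and 3 poor ND arrays and 4 rich and 4 poor HFD arrays. In limma 2 of 21729 probe sets passed (0.0092%), and 2510 had an unadjusted p under 0.05. Milr1, a myeloid inhibitory receptor also known as allergin, was 5.66 ± 0.47 (SD) on rich HFD arrays and 2.42 ± 0.11 on poor HFD arrays. On ND arrays it was 2.44 ± 0.31 in rich and 2.35 ± 0.21 in poor cultures. Every ND array and every poor HFD array thus read below the filter limit, and Milr1 entered the test through the HFD arrays where it was high. The rich HFD arrays read 5.56 at 1 month and 6.30, 5.17 and 5.59 at 4 months, above every ND array, of which ND 1-month replicate 1 has no value. HFD 2-month replicate 3, left out by the rule, read 3.90. The other call was a probe set without a gene name, at -1.06, and it did not pass in 10 of the fits that left out 1 array. The count of 2 was not stable: it was 62 without ND 1-month replicate 3, 6 without HFD 2-month replicate 1, 11 without ND 4-month replicate 1, and 4 with either HFD 1-month replicate 3 or HFD 4-month replicate 1 left out. It was 1 without any of 9 other arrays.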

How the data were processed

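RNA of 18 cultures was measured on Affymetrix arrays. The deposited table held linear intensity values of 31099 probe sets, made by the authors with RMA, per the submitters' processing notes; the build and annotation are not given in the sources used here. The ND 1-month replicate 1 column ended in 1343 empty cells and was moved down by that number, after which it correlated with the average of all remaining arrays at 0.990 instead of 0.0909; this left 1066 tested probe sets without a value there. The deposited intensities were taken to log2. Control probe sets and the dimmest 30% (mean log2 over 18 arrays below 3.22) were left out, which left 21729 tested. Rich and poor arrays were compared with limma 3.58.1 in R 4.3.3 (lmFit and eBayes, two-sided, Benjamini-Hochberg over all tested probe sets). The fit was tested on simulated data. Of the probe sets 20832 had 1 gene symbol, 436 several and 9831 none in GEO's platform annotation, and a gene stands for its brightest tested probe set with 1 symbol. The comparison rests on 9 rich and 7 poor arrays, and what limits its precision most was not tested.

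Members and lists were chosen with earlier results of these data known. Genes named are the 15 largest rises and 15 largest falls among those passed with no overlap, the up to 4 genes of each stromal, general or other marrow list with the largest moderated statistic, macrophage genes by role, and the 5 genes with the smallest interaction p. Further list members were named for their known roles after their values were seen. Alternatives were a block for diet and time or for replicate number, other filters, normalizations, thresholds and arrays left out in turn. Same-numbered replicates did not deviate together (mean correlation of residuals -0.0254 over 45 pairs, lowest -0.572), so the numbers were not treated as pairs.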

Additional observations from a re-analysis of the deposited data

Results flagged for a closer look

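Among 136 sets of values checked for a single distant array, 8 had one. Chance alone gives about 1 in 20, so the count of 8 was near that share. Of the 8, 5 were on the macrophage-poor array HFD 2-month replicate 2. It read 7.51 for Ccl6 where the nearest poor array read 3.92, 6.10 for Mmp3 where the nearest read 3.63, 6.66 for Adam8 where the nearest read 4.98, and 3.52 for Egln3 where the nearest read 2.90. Its mean level of osteoclast markers, relative to the mean of each gene, was 0.55, and the nearest poor array was at -0.12. The Cd68 level of this array, 7.89, was below those of both poor HFD 1-month arrays.

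Among the rich arrays, ND 4-month replicate 1 stood apart in 3 values. Ecrg4 was 4.56 there and 3.56 on the nearest rich array. The mean level of T and NK cell genes was -0.39 there and 0.026 on the nearest rich array, and that of megakaryocyte and platelet genes was -0.20 and 0.30.

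On ND 4-month replicate 3, which entered neither set, the mean level of the haematopoietic niche and myeloid growth factor list was 1.53, and the highest of the 16 compared arrays was at 0.35.

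The rich minus poor difference itself differed between diets for Milr1, by 3.15 (HFD minus ND, against values below the filter limit of 3.22, so of no exact size), and for a probe set without a gene name, by -1.06.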

How the results depend on the processing

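The count of probe sets that passed, 4641, stayed between 3475 (poor arrays only below 7 log2 of Cd68, chosen after seeing the data) and 5092 (array weights) under the other arrays, filters, normalizations and blocks tried, and between 4009 and 4630 with 1 array left out. With a required change of at least 1.5-fold it was 602 (492 higher, 110 lower). With the mean of the probe sets of each gene, which tests fewer features, it was 2903, of which 1240 were lower. With a replicate block 3715 passed. The interaction count of 2 became 1 with 1-month and 2-month arrays only, 1 with the replicate block, 5 with quantile normalization, and 1 to 62 with 1 array left out; the cause was not tested. With diet and time groups as a block, list medians moved to 1.54 (growth factor and cytokine receptors), 1.30 (chemokine receptors), 0.0076 (stromal surface markers) and -0.24 (osteoblast). They also moved to -0.53 (niche factors), 2.63 (inflammatory chemokines), -0.12 (NRF2 and heme) and -0.054 (ribosomal proteins). The block draws its differences from the 9 arrays of the groups that held both kinds. What else moved the medians was not tested. Of the named genes' values under the alternatives, 0 turned direction after a call, 148 no longer passed, and 63 newly passed; over all called genes 6 turned sign with the diet and time block. Myh11, Tgfb3 and Fgf1 did not pass over only the 9 arrays of the groups that held both kinds (chosen after seeing the data). Signal over background limits genes near the filter limit of 3.22, such as Hey2 on rich and Milr1 on poor arrays.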
